A study of Mus musculus with 2 samples.

Results

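Open chromatin sites in 3' untranslated regions (3'UTRs), the stretch of an mRNA between the stop codon and the poly(A) tail, were described in mouse calf muscle. A member was an open site found in both libraries whose midpoint lay over 1 kb from every protein-coding transcription start site (TSS), outside all coding sequence, and downstream of the stop codon of a protein-coding transcript in the GENCODE M21 annotation of mm10. There were 982 members among 68349 shared sites (1.44%), and among the 44700 shared sites over 1 kb from a protein-coding TSS. The measurement was DNase-seq, in which the enzyme DNase I cuts DNA where nucleosomes leave it accessible and the cut ends are sequenced. The tissue was the gastrocnemius of female B6CASTF1/J mice (C57BL/6J crossed with CAST) aged 14 days, in 1 group of 2 biological replicates and with no treatment, genotype or control group. Each label names a pool of 3 females, the biosamples are separate but carry 1 donor record, and only the label of replicate 2 names sequencing instruments, so sequencing batch and replicate cannot be told apart. With 1 group of 2 libraries no test between conditions was possible, and values are given per replicate.

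A 3'UTR is known chiefly for what it does in RNA: microRNAs and RNA-binding proteins use it to set an mRNA's stability and translation, and the signal for cleavage and polyadenylation lies near its end. The same bases are also DNA, where transcription factors can bind and act as enhancer, insulator or alternative promoter elements. CTCF is the insulator protein that anchors chromatin loops, and the E-box CAGCTG is a motif preferred by the myogenic factors MyoD and myogenin.

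Most of the sequences below are shown because they carry the 2 motifs that the results turn on, and the rest carry other motifs that were sought. Each is a short stretch of a member, read from mm10 (GRCm38) 5' to 3' on the strand given, with the motif match in capitals. The first 6 are the CTCF core matches of the strongest members that held one: in Dand5 (chr8:84815723-84815750, minus strand), Frmd8 (chr19:5850356-5850383, minus), Skap2 (chr6:51858060-51858087, minus), Ror2 (chr13:53109744-53109771, plus), Slc43a2 (chr11:75573546-75573573, minus) and Slc4a3 (chr1:75559668-75559695, minus).
Dand5: gcttttagCCACTAGGTGGCaccgcgtc
Frmd8: agctgtgaCCAGCAGGGGGCagctgagc
Skap2: ctaagtggCCAGCAGATGGCagcagctt
Ror2: atcctccgCCAGCAGGGGGCtcacggag
Slc43a2: tgagtctgCCAGCAGGGGGCactgtgat
Slc4a3: aaaaaccaCCACCAGAGGGCtacacacg

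The next 3 are E-box matches, in Plekhf1 (chr7:38217667-38217694, minus strand), H13 (chr2:152707792-152707819, plus) and Slc4a3 (chr1:75559635-75559662, plus). The Frmd8 site holds this E-box too, overlapping the 3' end of its CTCF core in the line above by 1 base.
Plekhf1: atgtatcctccCAGCTGtgtggatattg
H13: gcgggggccgcCAGCTGggctggtcgct
Slc4a3: tgctaggtaacCAGCTGtctggagcctg

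The last 3 are the matches of the strongest members for MEF2, the partner of the myogenic factors, in Rsad2 (chr12:26444167-26444194, minus strand), for the stimulus-responsive factor CREB in Pde4d (chr13:109951597-109951624, plus) and for the ubiquitous activator NRF1 in Unc13a (chr8:71629419-71629446, plus).
Rsad2: cttctgagtCTATTTTTAGgacttggtg
Pde4d: gacgtggacgTGACGTCAgcttggcaga
Unc13a: cgcgctaggGCGCAGGCGCggcaccgcc

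The tissue label was checked first. All 10 fibre markers (among them Acta1, Ckm, Des, Ttn and Myod1) had a shared site within 1 kb of their TSS, with summed signals of 79.8 in replicate 1 and 67.6 in replicate 2. So did 5 of 5 endothelial and 5 of 5 fibroblast markers, 3 of 5 neuronal markers (Syn1, Snap25 and Rbfox3) and 1 of 5 cardiac markers (Nppb), and none of 5 hepatocyte or 5 macrophage markers did. Of all 21938 protein-coding genes 13975 (63.7%) had such a site, so these small sets check the label only loosely. A bulk signal cannot tell fewer cells with an open site from less opening per cell. How many reads each library had is not known from the sources used here. Within a library the deposited peak signal moved in whole steps (100% of values within 0.05 of a step), and the median member was 268 steps high in replicate 1 and 252.5 in replicate 2, from a lowest of 22 in each.

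Members were found at a density between those of coding exons and introns. Per megabase of sequence that could hold them there were 32.0 members (95% interval 30.0 to 34.0), over 30.7 Mb. The same count was 48.6 (46.0 to 51.4) in coding exons, 36.5 (34.7 to 38.3) in other exons, 21.3 (21.03 to 21.6) in introns and 14.1 (13.9 to 14.3) in intergenic DNA, all over 1 kb from a TSS. The Poisson intervals cover counting error over sites only. Of the strict peaks of each library alone, 1304 of 87558 (1.49%) met the same position rule in replicate 1 and 1216 of 79562 (1.53%) in replicate 2, a mean of 1.51% ± 0.0276 (SD, n = 2). With the permissive lists there were 1562 members, and with the stronger 50% of peaks 531.

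The members were small and of moderate height. Their width had a median of 180 bp and ranged from 67 to 1020 bp. The signal, the authors' value per peak, ranged from 0.155 to 31.8 with a median of 1.89 in replicate 1, and from 0.146 to 34.2 with a median of 1.68 in replicate 2. Intron sites had medians of 1.62 and 1.45, intergenic sites 1.62 and 1.44, coding-exon sites 1.60 and 1.47, and promoter sites 3.66 and 3.40. Members thus had higher medians than the other named distal classes in both replicates and lower ones than promoters. In the authors' per-segment file, the stretch with a false discovery rate below 0.05 around a member had a median length of 293 bp in replicate 1 and 280 bp in replicate 2.

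The 2 libraries gave nearly the same heights. Ratios of replicate 2 to replicate 1 were divided by the median ratio over all shared sites, a log2 ratio of -0.14 that is called the centre here, because the scaling of the signal is not stated. The median centred log2 ratio of members was -0.00 (95% interval -0.02 to 0.02, n = 982 sites), with an SD of 0.30. After centring, 25 members (2.55%) were over 1.5-fold higher in replicate 2, against 3.00% of all shared sites, and 27 (2.75%) were over 1.5-fold lower, against 2.65%. Both shares were near those of all sites. All but 1 member agreed within 2-fold. Across members, Spearman's rho between replicates was 0.94, given as a description because sites of 1 library are not independent.

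**Figure D1:**
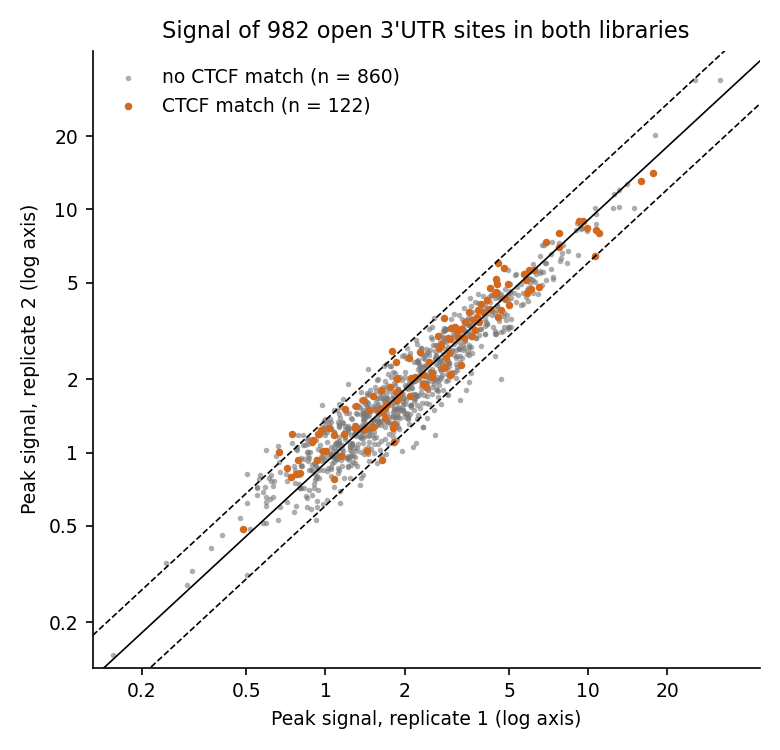
Peak signal of each of the 982 members in replicate 1 (x, log axis) and replicate 2 (y, log axis), with members that hold a CTCF match in orange. The solid line is the median ratio of all shared sites and the dashed lines mark 1.5-fold on each side of it; 25 members lie above and 27 below the dashed lines.

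Among members above the median height, those furthest from this centre were named. Tango6, a gene of transport and Golgi organisation, had 4.67 in replicate 1 and 2.00 in replicate 2 (centred log2 ratio -1.08), and Dclre1b, which encodes a nuclease that protects telomeres, had 2.61 and 1.18 (-0.998). On the other side, Vwce had 1.46 in replicate 1 and 2.21 in replicate 2 (0.75), and Kcnn4, a calcium-activated potassium channel gene, had 1.79 and 2.61 (0.69). With 1 library on each side these are differences between libraries only.

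Peaks that met the position rule in 1 library alone were weaker. There were 322 in replicate 1, with a median signal of 0.869 against 1.89 for those that overlapped a peak of replicate 2, and 62.4% of them lay in the permissive list of replicate 2. The 235 of replicate 2 had a median of 0.598 against 1.67, and 36.6% of them lay in the permissive list of replicate 1.

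The strongest members lay in genes of many functions. The site in Cers5, a ceramide synthase gene (chr15:99735821-99736040), had 31.8 in replicate 1 and 34.1 in replicate 2, and lay 477 bases past the stop codon of a 3'UTR of 1528 bases. Lars2, the mitochondrial leucyl-tRNA synthetase gene (chr9:123461921-123462080), had 25.6 and 34.2. Ubqln1, whose product carries ubiquitinated proteins to the proteasome (chr13:58177641-58177800), had 17.9 and 20.2. These were the members with the highest signals in both replicates, and the only ones of the strongest 15 in which replicate 2 had the higher uncentred value.

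The Lars2 value needs a limit. Of the 30-base words in that site, 61.8% occurred more than 1 time in the nuclear chromosomes of mm10, up to 8 times with the site itself counted. Reads of the site may therefore belong to more than 1 locus. None of the words occurred in the mitochondrial genome. The other 14 of the strongest 15 held no repeated word. Only exact copies in the assembled chromosomes were counted, so near-exact or unassembled copies of these sites would be missed. Over all members 908 held none, and 9 had more than 50% of their words repeated (Lars2, St3gal5, Prpf19, Mid1, Ddx6, Ap3b2, Jpt2, Ly6c1 and Gm8113).

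Next in height came Dand5, a gene for a secreted antagonist of Nodal signalling (chr8:84815641-84815840), with 17.6 in replicate 1 and 14.1 in replicate 2, and Frmd8, which encodes a partner of the iRhom proteins (chr19:5850241-5850420), with 15.9 and 13.1. Both hold a CTCF core printed above. Rtn2, a reticulon gene (chr7:19295921-19296080), had 14.1 and 12.7. The pigment gene nonagouti (symbol a; chr2:155050721-155050920) had 13.1 and 12.04, only 22 bases past its stop codon.

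Bcat2, which encodes the mitochondrial enzyme that starts the breakdown of branched-chain amino acids (chr7:45589221-45589520), had 14.9 and 10.1. The dystrobrevin gene Dtnb (chr12:3781621-3781800), a relative of the dystrophin complex, had 12.5 and 11.5, and Ehd2, an ATPase of caveolae (chr7:15948761-15948960), 13.1 and 10.2. In Plekhf1 (chr7:38217541-38217820) the signals were 12.4 and 10.1. H13, the signal peptide peptidase gene (chr2:152707721-152707940), had 10.6 and 10.1. Shf had 10.7 and 9.61, Ptges2, a prostaglandin E synthase gene, 10.7 and 8.73, and Skap2, which encodes an adaptor of Src-family kinases, 11.0 and 7.99. From the fourth to the last of these 15, replicate 1 had the higher uncentred value in every one, as in 673 of all 982 members (68.5%). After centring, replicate 2 was the higher in nonagouti, Dtnb and H13 (log2 ratios 0.02, 0.02 and 0.08).

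**Figure D2:**
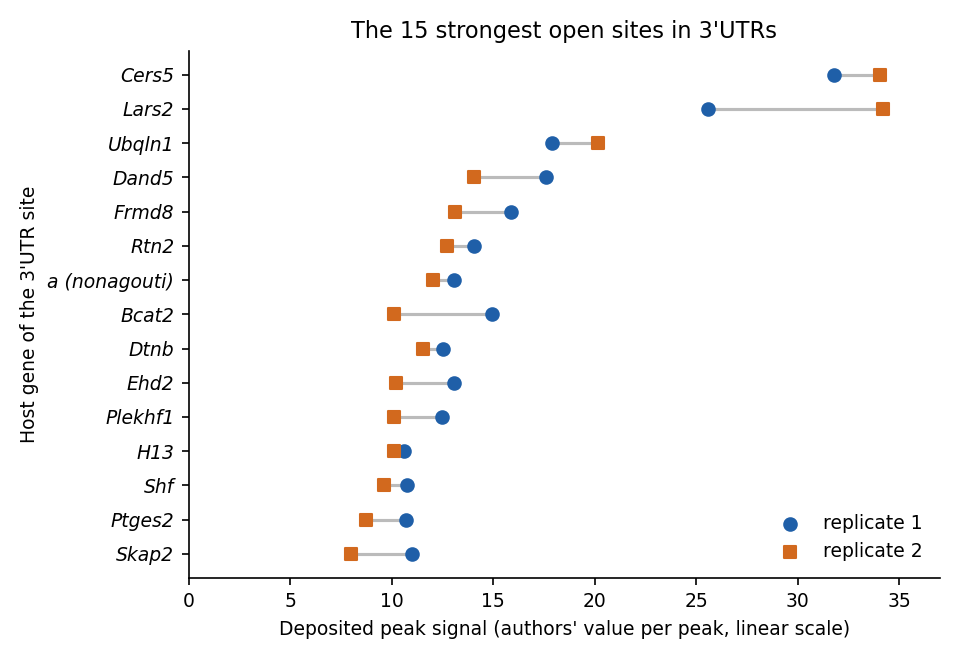
Deposited peak signal (x, linear scale) of the 15 strongest members, named by host gene, in replicate 1 (blue circles) and replicate 2 (orange squares). Cers5 and Lars2 stand apart at 25.6 to 34.2, and the other 13 lie between 7.99 and 20.2.

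Sites were spread along most of the 3'UTR and were sparse at its end. Each gene's representative 3'UTR was divided into 10 equal parts, which together held 925 members. Each of the first 9 parts had between 30.4 and 39.1 members per eligible Mb. The last part had 36 members in 2.95 Mb, or 12.2 per Mb (8.55 to 16.9). Each library alone showed the same step: the first 9 parts had 39.2 to 54.6 peaks per Mb in replicate 1 and 35.98 to 48.8 in replicate 2, and the last part had 16.6 (12.3 to 22.0) and 18.6 (14.0 to 24.3). GC content was also lowest there, at 37.8% of bases against 42.1 to 45.4% in the other parts, and its part in the result was not tested.

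**Figure D3:**
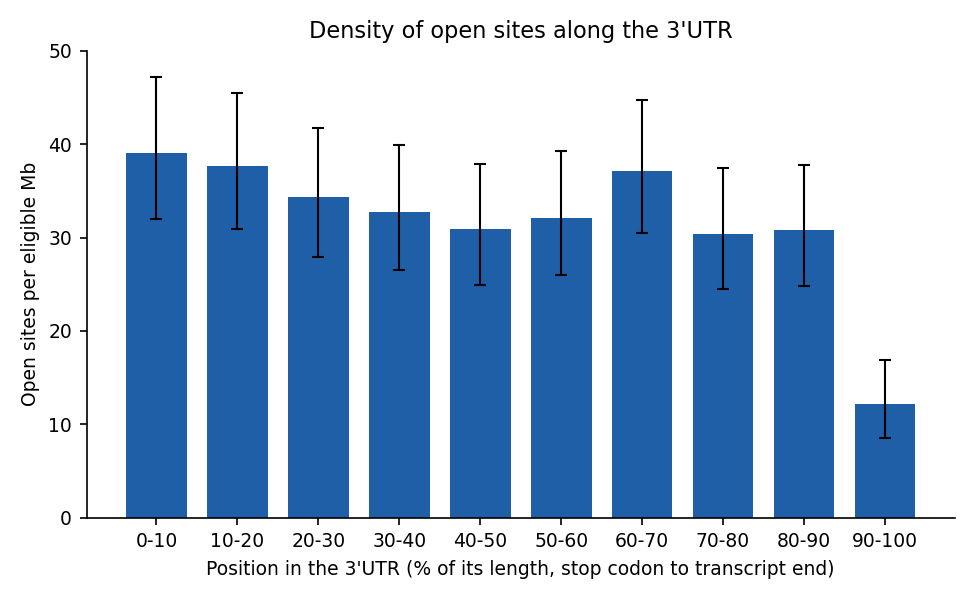
Members per eligible megabase (y) in each of 10 equal parts of the representative 3'UTR from stop codon to transcript end (x), with exact Poisson 95% intervals. The last part has 12.2 per Mb, and each of the others has 30.4 or more.

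The density was also counted across the transcript end. In the last 250 bases of the representative 3'UTRs there were 25.1 shared distal sites per Mb (20.7 to 30.2), against 39.8 (33.6 to 46.9) in the 250 bases before them. In the first 250 bases past the transcript end the density was 34.9 (29.8 to 40.6), and in the next 250 it was 40.9 (35.4 to 47.0). The separate libraries had 33.5 and 30.3 peaks per Mb in the last 250 bases and 46.8 and 42.0 in the 250 bases past the end. Other bins inside the 3'UTR were as low: 21.04 (14.1 to 30.2) at 1750 to 2000 bases before the end, 28.3 (20.7 to 37.8) at 1500 to 1750 and 28.6 (22.5 to 35.8) at 750 to 1000, so the last 250 bases were not the lowest of these bins. GC content was 39.9% in the last 250 bases and 43.8% in the 250 past the end.

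Counted from the other side, density was highest next to the stop codon. It was 44.3 members per Mb (38.1 to 51.1) in the first 250 bases, 36.99 (31.0 to 43.8) in the next 250, 27.9 (24.2 to 32.0) between 1000 and 2000 bases, and 17.99 (13.3 to 23.9) beyond 4000. By the length of the 3'UTR, there were 28.5 members per Mb (14.7 to 49.8) in those under 250 bases, 56.6 (42.2 to 74.5) in those of 250 to 500, 39.8 (32.6 to 48.1) in those of 500 to 1000 and 22.6 (19.5 to 26.1) in those over 4000. The median member lay 831.5 bases past the stop codon in a 3'UTR of 2227.5 bases.

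Most members lay in plain final exons. The exon was the last one for 979 of 982, and 138 (14.1%) were also inside an intron of another protein-coding transcript, where the class depends on which transcript is used. Those 138 include the sites named here for Tango6, Zfp36l1, Pdlim7 and Mrtfb and all 4 of Fbxo31. For 670 members (68.2%) the nearest protein-coding TSS was that of the host gene, and for 312 it was that of another gene. There were 348 members over 10 kb from every protein-coding TSS. Within 1 kb of a TSS of another gene type lay 52 members, 29 of them near an antisense RNA, and none overlapped an annotated microRNA hairpin. Those 29 include the sites named here for Ckm, Jund and Zfp36l2 (15 bp from the TSS of AC132455.1) and those of Ank1 and Gpd1.

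The 1 kb limit left out 151 sites that met every other part of the rule. Just inside it were members in Rps20, a ribosomal protein gene (1002 bp from a TSS, signals 0.919 and 0.784), Olfml3 (1012 bp, 2.64 and 1.99) and Actn4, an actinin gene (1021 bp, 2.35 and 1.91). Just outside were sites in Hyou1, an endoplasmic reticulum chaperone gene (1000 bp, 3.29 and 3.17), Dmpk, the myotonic dystrophy kinase gene (995 bp, 7.70 and 5.91), and St6galnac4 (995 bp, 1.32 and 1.32).

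The base composition of members differed from that of closed sequence in the same 3'UTRs. The median GC content of 150 bp around the midpoint was 56.0%, against 46.7% in 12639 tiles of the same length from these 3'UTRs that touched no permissive peak. Members had on average 3.69 CpG dinucleotides per window against 1.83. Windows that were mostly repeat sequence made up 0.916% of members and 11.0% of closed tiles. Intron sites had a median GC content of 54.7%, coding-exon sites 60.7% and promoter sites 66.0%.

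Of the 20 motifs sought, CTCF had the largest ratio of shares between members and closed sequence. An exact match to its core on either strand was present in 122 members (12.4%, Wilson 95% interval 10.5 to 14.6%), in 3 of the 12639 closed tiles (0.0237%) and in 0 of 1730 windows 1 kb to each side (upper 95% bound 0.222%). Among other open sites the share was 9.57% (9.19 to 9.97%) in intergenic DNA, 8.21% (7.83 to 8.61%) in introns, 4.93% (3.87 to 6.27%) in coding exons and 1.64% (1.49 to 1.82%) at promoters. The intervals of members and of these classes did not overlap. The classes were not matched for signal height, which was higher in members than in the intergenic, intron and coding-exon sites. With the permissive lists the share of members was 8.96%, and in the stronger 50% of peaks 15.4%. The shares of the other classes are given for the strict lists only.

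Members with a CTCF match were also higher. Their median signal was 2.61 in replicate 1 and 2.32 in replicate 2, and the median of the mean over both libraries was 2.48, against 1.73 for the 860 without. Of the 100 strongest members 22 held a match, and of the 100 weakest 7. Their median centred log2 ratio was 0.08, against -0.01 for the others. The matches lay on the strand of the gene in 52 cases and on the opposite strand in 71 (42.3% on the gene's strand, 33.9 to 51.1%).

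The E-box CAGCTG was the most frequent of the motifs sought. It was present in 232 members (23.6%, 21.1 to 26.4%), against 7.70% of closed tiles and 8.03% of windows 1 kb to each side. The share was 24.5% in intergenic sites and 26.2% in introns, and it was higher in coding exons (31.9%) and lower at promoters (12.1%). Members with the E-box had a median mean signal of 1.92 against 1.76 without. Only 11 members held both motifs, and 639 (65.1%) held neither.

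**Figure D4:**
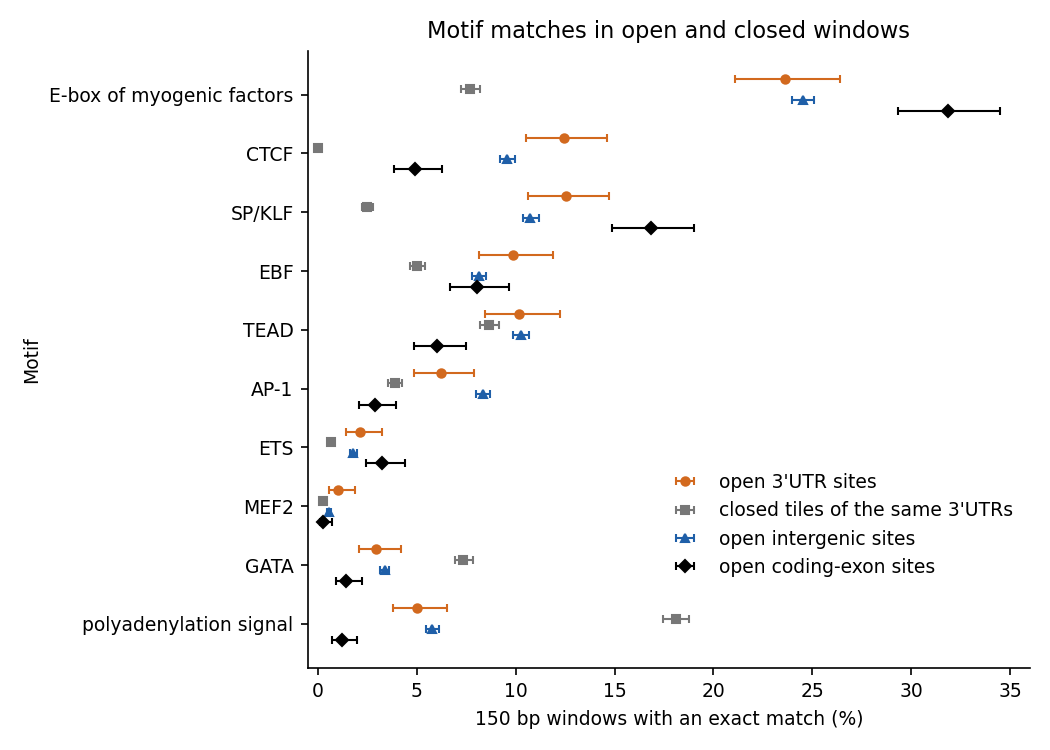
Share of 150 bp windows with an exact match (x, linear scale) to each of 10 motifs (y), with Wilson 95% intervals, in members (orange circles), closed tiles of the same 3'UTRs (grey squares), open intergenic sites (blue triangles) and open coding-exon sites (black diamonds). Members lie far above closed tiles for CTCF (12.4% against 0.0237%) and the E-box (23.6% against 7.70%), and below them for GATA and the polyadenylation signal.

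Of the other motifs, searched on both strands, several were more frequent in members than in closed tiles. The SP/KLF box GGGCGG was present in 12.5% of members (10.6 to 14.7%) against 2.49% of closed tiles, the AP-1 site TGANTCA in 6.21% (4.87 to 7.90%) against 3.88%, the EBF motif CCCNNGGG in 9.88% (8.17 to 11.9%) against 5.02%, and the ETS motif CCGGAAG in 2.14% (1.40 to 3.25%) against 0.633%. MEF2 matches were rare, in 10 members (1.02%, 0.554 to 1.86%) against 0.253% of tiles. NRF1 matches were rarer still, in 6 members (0.611%, 0.280 to 1.33%) against 0.0791% of tiles. In open intron and intergenic sites the shares were 9.45% and 10.7% for SP/KLF, and 8.10% and 8.34% for AP-1. They were 8.32% and 8.12% for EBF, and 1.29% and 1.78% for ETS. Those classes thus also lay above closed tiles for these 4 motifs. The TEAD motif GGAATG (10.2% against 8.66%), the NF-Y motif CCAAT (17.6% against 19.1%) and the RUNX motif TGTGGTT (3.26% against 3.29%) had intervals that overlapped those of closed tiles. No member held the NFI palindrome (upper 95% bound 0.390%), and 1 closed tile did.

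For 2 motifs the share of members lay below that of closed tiles with intervals that did not overlap. The polyadenylation signal AATAAA was present on either strand in 49 members (4.99%, 3.79 to 6.54%) against 18.1% of closed tiles, and on the strand of the transcript in 28 (2.85%) against 9.15%. The GATA motif AGATAA was present in 2.95% of members (2.06 to 4.21%) against 7.36% of closed tiles. Open intron and intergenic sites had like shares, 5.13% and 5.79% for AATAAA on either strand and 3.36% and 3.37% for AGATAA. The low shares were thus not particular to members. Members had the higher GC content given above, and the part of GC content in any of these shares was not tested.

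Footprints, short protected stretches inside an open site that the authors called at a false discovery rate of 0.01 in each library, were present in nearly all members. In replicate 1 there were 963 members (98.1%) with a footprint, in replicate 2 955 (97.3%), and in both 951 (96.8%). Intron sites had a footprint in 97.9% and 97.4% of cases and intergenic sites in 97.5% and 96.9%, close to the members. Coding-exon sites had one in 94.8% and 94.99%, and promoter sites in 89.4% and 88.6%. The median member held 3 footprints in each library, and 15 members held none in either. Those 15 were of middling to low height, led by B430305J03Rik (2.28 in replicate 1 and 2.28 in replicate 2) and Zdhhc8 (2.54 and 1.87), and they included the weakest member, in Trim11 (0.155 and 0.146).

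At CTCF matches the footprints of both libraries coincided. All 123 matches in members overlapped a footprint in each library (the lower 95% bound is 97.0%). The base at the centre of the match was covered in 99.2% of the 122 members in replicate 1 and 100% in replicate 2, against 28.4% and 24.9% of all window bases. The centre of the E-box was covered in 30.2% and 25.4% of 232 members, close to those shares of all window bases. All 6 CTCF cores printed above lay in footprints of both. The share of E-box matches that overlapped a footprint by any base was 38.4% (32.9 to 44.3%) and 35.9% (30.4 to 41.7%). The boxes printed for H13 and Slc4a3 lay in footprints of both libraries, and the box printed for Plekhf1 in none. The polyadenylation signal was covered in 15.4% and 7.69% of its 52 matches, and EBF matches in 72.4% and 65.5% of 116.

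**Figure D5:**
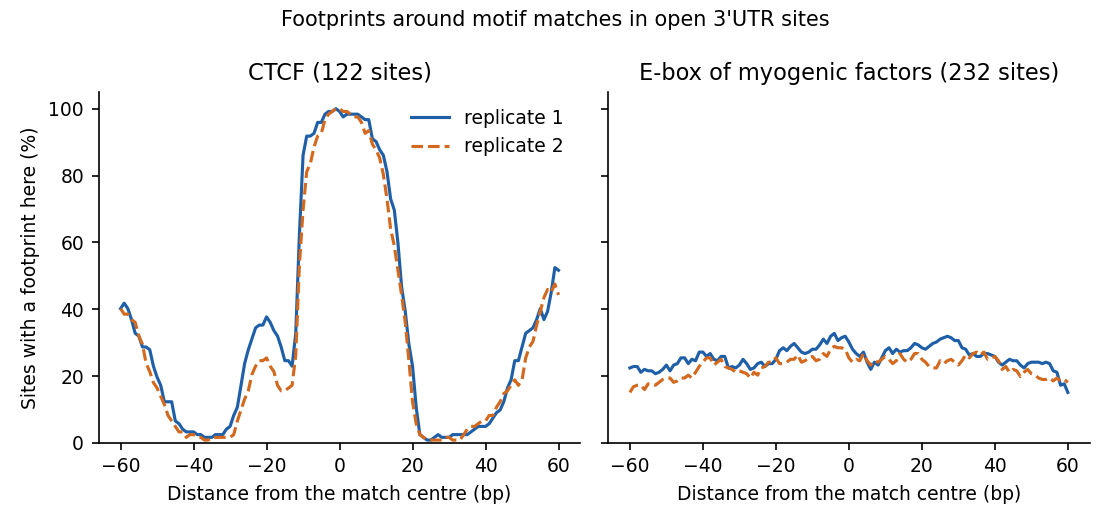
Share of members with a footprint at each base (y) by distance from the centre of the motif match (x, in bp). Shown are the 122 members with a CTCF match and the 232 with the E-box, in replicate 1 (solid) and replicate 2 (dashed). The CTCF distance runs along the motif's strand, while the E-box reads the same on both strands and gives no direction. At CTCF the share peaks at 100% in both libraries. At the E-box it peaks at 32.8% and 28.9%, against averages of 23.0% and 19.7% at 40 to 60 bp away. Nearly the same share is reached elsewhere, with 31.9% at 27 bp in replicate 1 and 27.2% at 35 bp in replicate 2. Of all window bases 28.4% and 24.9% are covered.

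The members with most footprints were wide ones. In Nmt1, an N-myristoyltransferase gene (chr11:103067661-103068000), there were 13 in replicate 1 and 9 in replicate 2, with signals of 4.47 and 5.05. The site in 2700081O15Rik held 10 and 12 (4.12 and 3.38), that in Zbtb7b, a zinc-finger transcription factor gene, 8 and 9 (5.08 and 3.56), that in Mmp14, which encodes a membrane-bound matrix protease, 9 and 7 (3.04 and 2.63), and that in Prrt1 9 and 7 (2.61 and 2.76).

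The members lay in 895 host genes. Of these 808 held 1 member, 75 held 2, 10 held 3 and 2 held 4, and 14 members lay in the 3'UTRs of more than 1 gene. Most host genes had an open promoter as well: 757 (84.6%, 82.1 to 86.8%) had a shared site within 1 kb of a TSS, against 66.0% (65.4 to 66.7%) of the 19884 genes whose 3'UTR could hold a member. Among host genes with an open promoter the median promoter signal was 7.39, and among all such genes 7.55. In 114 of 743 hosts (15.3%) the strongest member was higher than the promoter, and across these hosts Spearman's rho between both heights was 0.10, a description over genes of the same libraries.

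Fbxo31, a gene for the substrate-binding part of a ubiquitin ligase, and Plekhm3 held 4 members each. The sites of Fbxo31 spanned 2460 bp of chromosome 8 and had signals of 3.85, 0.869, 0.311 and 0.247 in replicate 1 and 3.04, 0.698, 0.326 and 0.352 in replicate 2. Only the first of these, nearest to the stop codon, was above the median member. All 4 lay in 1 joined stretch with a false discovery rate below 0.05, of 3581 bp in replicate 1 and 3357 bp in replicate 2. In Plekhm3 the signals were 3.18, 1.37, 1.05 and 0.911 in replicate 1 and 2.49, 1.15, 0.798 and 0.897 in replicate 2, over 1920 bp of chromosome 1.

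Of the genes with 3 members, 8 were named. In each library the 3 sites of Gpd1 lay in 1 such joined stretch, and so did those of Ank1 and those of Sox4. Gpd1, the cytosolic glycerol-3-phosphate dehydrogenase gene that links glycolysis to lipid synthesis, had 4.68, 4.05 and 1.70 in replicate 1 and 4.31, 3.08 and 1.73 in replicate 2. Its sites and the site in Cers5, the strongest of all, lay on either side of the TSS of Cox14, which was the nearest protein-coding TSS to each. Ank1, which encodes an ankyrin with a short muscle form in the sarcoplasmic reticulum, had 4.28, 3.02 and 1.71 in replicate 1 and 4.46, 3.22 and 1.89 in replicate 2. Ppp1r12b, a myosin phosphatase subunit gene, had 2.53, 2.00 and 1.29 in replicate 1 and 2.99, 1.46 and 1.20 in replicate 2.

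In Aak1, an endocytic kinase gene with a 3'UTR of 15925 bases, signals ranged from 0.883 to 5.68 in replicate 1 and from 0.698 to 5.42 in replicate 2. Sox4, a developmental transcription factor gene, had 0.707 to 2.08 and 0.818 to 1.91, and Cdc6, a DNA replication licensing gene, 1.89 to 3.51 and 2.05 to 2.53. Crtc3, a coactivator gene of CREB, had 1.48 to 3.52 and 1.24 to 1.95. In E130308A19Rik the range was 0.890 to 3.61 and 0.851 to 2.57.

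Host genes were then counted in 18 gene lists, beside the 4.50% of all eligible genes that were hosts. These shares were not adjusted for the length of the 3'UTRs. The list of immediate early genes, which answer within minutes to growth and activity signals, and signalling transcription factors had 6 hosts among 26 eligible genes (Dusp1, Fosb, Ier2, Jun, Jund and Klf6). Ier2 had 9.49 in replicate 1 and 8.38 in replicate 2, Jun, a subunit of AP-1, 9.18 and 6.48, and its relative Jund 5.66 and 4.55. These are compact genes, and the sites lay 1151, 2141 and 1142 bp from the nearest protein-coding TSS, which was the gene's own. Antisense RNAs start nearer to 2 of them: the TSS of Gm11175 is 11 bp from the Jund site and that of Junos 1453 bp from the Jun site. Fosb, another AP-1 subunit gene, had 3.61 and 3.80, 5619 bp from its TSS.

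RNA-binding proteins and polyadenylation factors had 6 hosts among 38 (Celf1, Celf2, Rbfox2, Tnrc6b, Zfp36l1 and Zfp36l2). Zfp36l1 and Zfp36l2 encode proteins that speed the decay of mRNAs with AU-rich 3'UTRs, and had 6.76 and 2.66 in replicate 1 and 5.54 and 2.78 in replicate 2. Rbfox2, a splicing regulator gene of muscle, had 2.46 and 1.81. The Wilson intervals were wide, 11.0 to 42.1% for the share of immediate early genes and 7.44 to 30.4% for the share of these.

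Genes of the muscle fibre's membranes and of its contractile apparatus were also counted. Hosts of the excitation-contraction coupling list included 3 that are given here: Cacnb1 (5.91 in replicate 1 and 4.76 in replicate 2) and Cacng1 (0.933 and 0.598) encode subunits of the calcium channel that senses voltage in the fibre, and Jph1 (4.44 and 3.08) encodes the junctophilin that joins surface and internal membranes. Among sarcomere, Z-disc and M-band genes only Pdlim7 of 44 was a host (3.88 and 3.22). The interval of this share, 2.27% (0.402 to 11.8%), holds the 4.50% of all eligible genes. In the dystrophin-glycoprotein list Dtnb, given above, was a host.

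Among metabolic genes, the mitochondrial and fatty-acid oxidation list had 3 of 30: Ckm, the muscle creatine kinase gene (6.68 and 4.91), Tfam, which packages mitochondrial DNA (4.48 and 4.92), and Pdk4, which slows glucose oxidation (1.17 and 1.02). The Ckm site lay 84 bases past the stop codon and 54 bp from the TSS of the antisense RNA A930016O22Rik. The glycolysis list had 1 host of 24 (Ppp1r3d, a glycogen-targeting phosphatase subunit gene, 2.30 and 2.23), and the clock list 1 of 21 (Csnk1e, a kinase gene of the clock, 1.96 and 1.99).

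Myogenic transcription factors had 4 hosts of 32. Sox6, a repressor gene of the slow-fibre programme, had 3.54 in replicate 1 and 3.12 in replicate 2, at 124875 bp from its nearest TSS. Myog, the myogenin gene, had 1.41 and 1.36, 475 bases past its stop codon. Mrtfb, a coactivator gene of serum response factor, had 1.003 and 1.02, and Tead4 0.862 and 1.14. The atrophy and growth list also had 4 of 32, with Fbxo31 above, the activin receptor gene Acvr1b (2.71 and 2.64), Sesn2 (1.36 and 1.17) and Foxo4 (1.02 and 0.864). Satellite-cell genes had 2 of 23, the Notch receptor gene Notch1 (1.53 and 1.70) and its target Heyl, whose stronger site had 6.93 and 5.12.

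Lists of other cell types and controls had at most 1 host each. Kdr, the endothelial VEGF receptor gene, was the host among 16 endothelial markers (2.91 and 3.24), Mylk, a smooth-muscle kinase gene, among 11 pericyte markers (1.31 and 1.20), and Rbfox3, a neuronal splicing gene, among 16 liver, neuron and heart controls (6.80 and 7.12). The Rbfox3 site was nearer to the TSS of Engase than to its own. Neuromuscular junction (14 eligible genes), fibroblast and tendon (18), macrophage and leukocyte (12) and housekeeping lists (13) had no host. At these list sizes a count of 0 leaves upper 95% bounds of 17.6 to 24.2%, all above the 4.50% of all genes.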

How the data were processed

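DNase-seq was measured in 2 libraries of 1 group. For each library the authors deposited a strict and a permissive peak list on mm10 with a signal per peak, called per library without pooling per the file headers. They also deposited footprints with 1 p-value field holding a false discovery rate of 0.01, and per-segment false discovery rates (q-values) listed below 0.05. For the aligner, the callers and their versions, names were not given in the sources used here. Read totals and the scaling of the signal are unknown too. No header or label says how reads with several alignments were treated.

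Strict peaks of both libraries that overlapped by at least 1 bp were merged, and sites with a peak of each were shared sites. The signal of a site in a library was that of its strongest peak. Classes were assigned by midpoint, in the order promoter (within 1000 bp of a protein-coding TSS), coding exon, 3'UTR, other exon, intron and intergenic, with GENCODE M21. Its 21938 protein-coding gene IDs include a few that share a symbol. Motifs were sought as exact matches in 150 bp around the midpoint, on GRCm38. Segments of the false discovery rate files with gaps of at most 20 bp were joined. Repeated 30-base words were counted over the chromosomes and the mitochondrial genome. Shares carry Wilson 95% intervals, densities exact Poisson intervals and the median ratio a binomial order-statistic interval. These cover counting error over sites, windows or genes only. Work was done in Python 3.11.15 with pandas 2.3.3, numpy 2.4.6 and scipy 1.17.1, and the site merging, position classes and motif search were tested on simulated data.

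The members, the 18 gene lists and the 20 motifs were chosen with earlier results of these data known. Named by rule were the 15 strongest members, the 10 genes with most members, up to 3 members per gene list, the 5 highest and 5 lowest centred ratios among members above the median signal (of which 2 each are printed), the 5 members with most footprints and the 3 nearest the TSS limit on each side. Printed sequences followed a rule of their own (the strongest members with each motif), and none is from chromosome 18. The other hosts of a list are named because their count is small. Some hosts of 2 lists are not reported here. The E-box and AP-1 matches of Frmd8 were chosen by the same rule and are not printed on lines of their own. Alternatives were the permissive lists, the stronger 50% of peaks, 50% reciprocal overlap, other TSS distances, TSS sets, transcript sets and windows, and each library alone. The profile across the transcript end, the 10 parts per library and the repeated words were added after values were seen.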

Additional observations from a re-analysis of the deposited data

How the results depend on the processing

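No paired analysis was possible because there was 1 group and no second group to pair with. Of 55 values under other settings 33 stayed within the limit set for each value and 22 did not. With the permissive lists there were 1562 members at 50.8 per Mb, with a median signal of 1.22, CTCF matches in 8.96%, footprints of both libraries in 88.3% and open promoters at 87.7% of hosts. With the stronger 50% of peaks these values were 531, 17.3, 2.85, 15.4%, 99.1% and 82.0%. Leaving out each library in turn gave 39.6 to 42.4 sites per Mb, a median signal of 1.42 to 1.51, CTCF matches in 10.1 to 10.4% and footprints in 89.8 to 94.2%; these counts hold peaks of 1 library that need no partner. Without centring the median log2 ratio was -0.14. In windows of 200 bp the E-box was present in 27.1%. Over 2500 bp from a TSS 811 members were left, and over 1 kb from a TSS of any gene type 930. Depth is unknown, the reference is that of C57BL/6J while the mice were a cross with CAST, and reads that differ from the reference were not analysed here.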
